A study of Mus musculus with 4 samples.

Results

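Collagen genes other than Col4a1 and Col4a2 were followed across 4 arrays of sorted mouse mesoderm. Members were all genes whose single symbol in the platform annotation had the form of a collagen chain (Col, a type number, the letter a and a chain number), without Col4a1 and Col4a2. This gave 40 genes of the 18193 with a single symbol, each read on the probe set with the highest mean over the arrays. The cells came from TT2 mouse embryonic stem cells in which 1 Etv2 allele carried a Venus reporter, Etv2 being an ETS factor needed for blood and endothelium. They had grown on a feeder of OP9 cells, which are stromal cells of mouse marrow, and are labelled day 5. Flk-1+ cells (Flk-1 is a receptor for VEGF and the product of Kdr) were sorted by Venus into Etv2 negative and Etv2 positive cells, with 2 arrays of total RNA for each, numbered 1 and 2. Both populations carry the reporter allele, and all 4 arrays come from the same line. Whether separate cultures stand behind the arrays is not given in the labels. The p-values between the populations therefore speak of the spread between arrays alone, and that spread may be technical. Those between the array numbers speak of how alike the number 1 minus number 2 differences of the 2 populations were.

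Collagens are secreted or membrane-bound proteins in which 3 chains wind into a triple helix. Fibrillar types I, II, III, V and XI build the fibres of connective tissue, type VI forms beaded filaments around cells, and FACIT collagens (fibril-associated collagens with interrupted triple helices) sit on the surface of fibres. Other chains form networks in basement membranes, span the cell membrane, or, as the multiplexins XV and XVIII, link basement membranes to the matrix around them. Fibroblasts and marrow stromal cells are rich sources of types I, III, V and VI, and endothelium is known for type IV and type XVIII.

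The promoters of 5 members are shown because these genes carry the 2 patterns described here. Col1a2, Col3a1 and Col6a1 differed between arrays of different number, and Col13a1 and Col18a1 differed between the populations. The sequences are from RefSeq, build GRCm38.p6, and give the 250 bases before the annotated start on the gene's own strand. They lie at chr6:4505368-4505617 (plus strand) for Col1a2, chr1:45311288-45311537 (plus strand) for Col3a1 and chr10:76726045-76726294 (minus strand) for Col6a1. Those of Col13a1 and Col18a1 lie at chr10:61979109-61979358 and chr10:77166531-77166780, both on the minus strand, the latter being the first of 2 starts listed for Col18a1. Capitals mark matches, on either strand, to 4 motifs of which none contains another. These were the box spelled CCAAT, the TATA box searched as TATAAA, the GC box searched as GGGCGG, and a stretch spelled GGAAGT that holds the core bound by ETS factors.
Col1a2: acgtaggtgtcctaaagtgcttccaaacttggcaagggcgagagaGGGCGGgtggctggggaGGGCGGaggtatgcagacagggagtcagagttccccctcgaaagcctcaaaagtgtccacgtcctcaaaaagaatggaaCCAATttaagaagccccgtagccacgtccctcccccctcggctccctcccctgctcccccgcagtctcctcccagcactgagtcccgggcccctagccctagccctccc
Col3a1: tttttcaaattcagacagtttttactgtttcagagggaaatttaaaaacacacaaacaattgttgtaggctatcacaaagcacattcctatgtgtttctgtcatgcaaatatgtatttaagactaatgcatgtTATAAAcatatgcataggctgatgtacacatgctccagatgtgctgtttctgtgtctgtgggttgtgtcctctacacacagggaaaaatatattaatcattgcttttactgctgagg
Col6a1: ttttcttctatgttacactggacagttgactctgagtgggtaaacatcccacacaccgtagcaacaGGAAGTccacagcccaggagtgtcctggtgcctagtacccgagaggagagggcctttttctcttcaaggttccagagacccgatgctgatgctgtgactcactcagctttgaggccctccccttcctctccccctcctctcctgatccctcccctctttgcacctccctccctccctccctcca
Col13a1: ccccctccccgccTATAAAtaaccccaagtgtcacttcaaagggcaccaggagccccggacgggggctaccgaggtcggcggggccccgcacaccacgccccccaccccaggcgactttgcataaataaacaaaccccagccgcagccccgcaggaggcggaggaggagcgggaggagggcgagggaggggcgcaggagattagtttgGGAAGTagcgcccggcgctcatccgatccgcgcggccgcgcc
Col18a1: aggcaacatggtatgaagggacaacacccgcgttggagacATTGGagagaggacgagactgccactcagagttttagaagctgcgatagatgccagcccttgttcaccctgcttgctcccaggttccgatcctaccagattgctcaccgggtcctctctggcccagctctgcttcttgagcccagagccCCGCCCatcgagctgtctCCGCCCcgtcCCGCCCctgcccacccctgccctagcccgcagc
Col1a2 held a CCAAT box 109 bases before its start and a pair of GC boxes, Col3a1 held TATAAA, and Col6a1 held GGAAGT 184 bases before its start. The window of Col13a1 held GGAAGT 42 bases and TATAAA 237 bases before the start, and that of Col18a1 held 3 GC boxes and a CCAAT box on the other strand. Of the 31 members with a window in the RefSeq table, 11 held the CCAAT box, 5 the TATA box, 19 the GC box and 8 the ETS stretch. Among all 32851 windows of the same length the shares were, in that order, 33.8%, 12.4%, 32.7% and 19.7%. A member counted if the window of any of its listed starts held the motif, while these shares are over single windows. The units are therefore not alike. A match is a description of letters and not of binding.

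The values are log2 expression values, on which a difference of 1 is a 2-fold change, and the medians of all probe sets lay between 5.46 and 5.52 on the 4 arrays. A population difference is the positive mean minus the negative mean, and an array-number difference is number 1 minus number 2, fitted with the population as a term. Both come with the standard error (SE) of a limma fit over all 18193 genes. Levels of different probe sets are not comparable with each other. Kdr, on whose product both populations were sorted, measured 12.51 and 12.68 in negative cells and 12.64 and 12.81 in positive cells. Etv2 measured 12.03 and 11.87 against 12.64 and 12.41, so that both positive arrays lay higher. Endothelial markers had a median population difference of 0.995 over 10 genes. Of the 40 collagens, 18 had a mean of 6 or more in either population and 22 did not. By level, size of difference or rank, 20 members are described array by array, and the rest by their ranges.

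**Figure D1:**
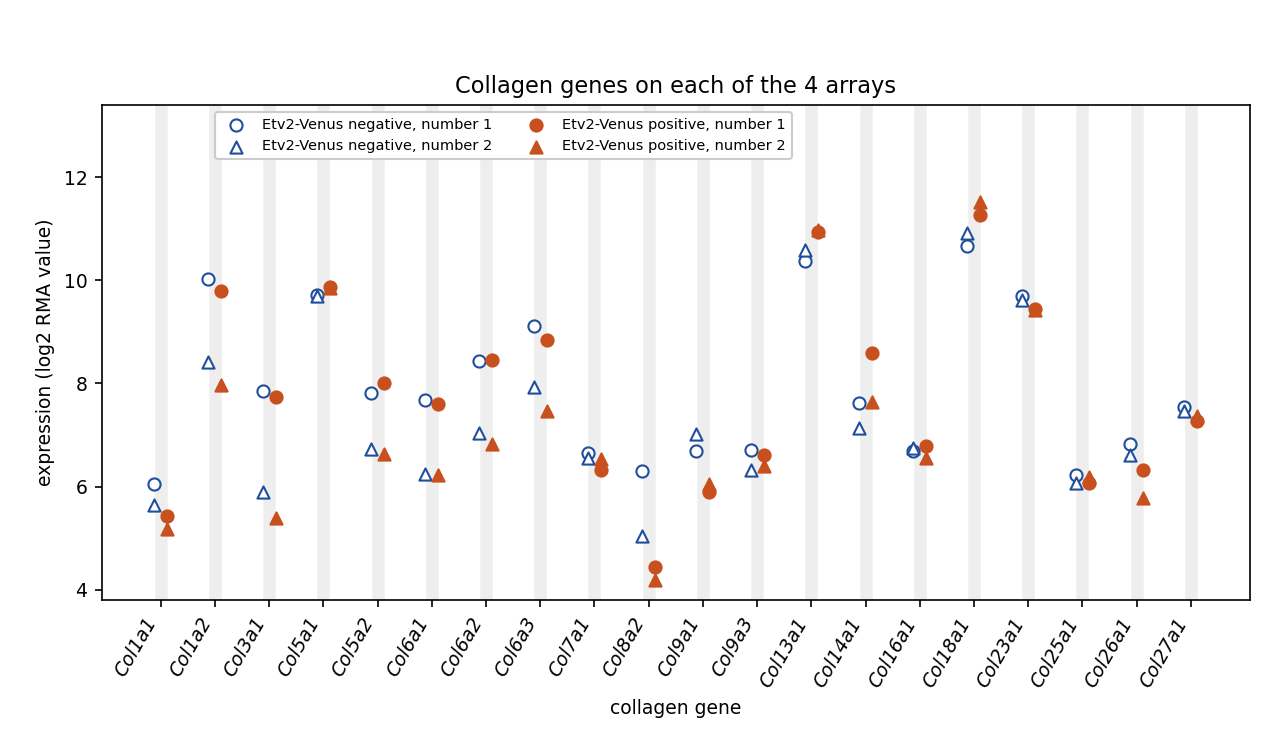
Log2 expression of the 20 collagen genes described array by array, with 1 point per array, open blue for the Etv2-Venus negative and filled orange for the positive population, circles for number 1 and triangles for number 2. For Col1a2, Col3a1, Col5a2, Col6a1, Col6a2 and Col6a3 both circles lie above both triangles, while for Col13a1 and Col18a1 both orange points lie above both blue points.

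Between the populations, the multiplexin Col18a1 and the membrane-spanning Col13a1 measured higher in Etv2-Venus positive cells, and Col8a2, Col9a1, Col26a1 and Col1a1 measured lower. With Benjamini-Hochberg adjustment over all genes in limma, 0 of the 40 members reached an adjusted p of 0.05, against 0% of all genes. At an unadjusted p under 0.05 stood 2 members in the higher direction (5% of members, 7.07% of all genes) and 4 in the lower direction (10% of members, 4.64% of all genes). The median difference was -0.02 over the members and 0.01 over all genes. The counts moved when single arrays were left out. Without array 1 of the negative cells 1 member stood higher and 2 lower, and without array 2 of the positive cells 1 stood lower.

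Between arrays numbered 1 and 2 the members moved further. Col3a1, Col1a2, Col6a2, Col6a1, Col6a3 and Col5a2 measured 2.35-fold to 4.45-fold higher on the arrays numbered 1, in both populations. No member passed an adjusted p of 0.05 here either, nor did any other gene (0%), but the 6 named did (limma adjusted p from 0.0358 to 0.0481) when genes were limited to a mean of 6 or more or the variance was given a trend with the mean. At an unadjusted p under 0.05, 16 members stood higher on number 1 (40% of members, 14.5% of all genes) and 2 lower (5% of members, 5.34% of all genes). Number 1 lay above number 2 in both populations for 25 members (62.5%), against 45.9% of all genes, and below it in both for 3 (7.5%), against 20.4%. At least 2-fold higher on number 1 were 45 genes in all (0.247%), of which 6 were collagen members, and at least 2-fold lower were 36 genes (0.198%), of which 0 were. These 6 are 15% of the members.

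**Figure D2:**
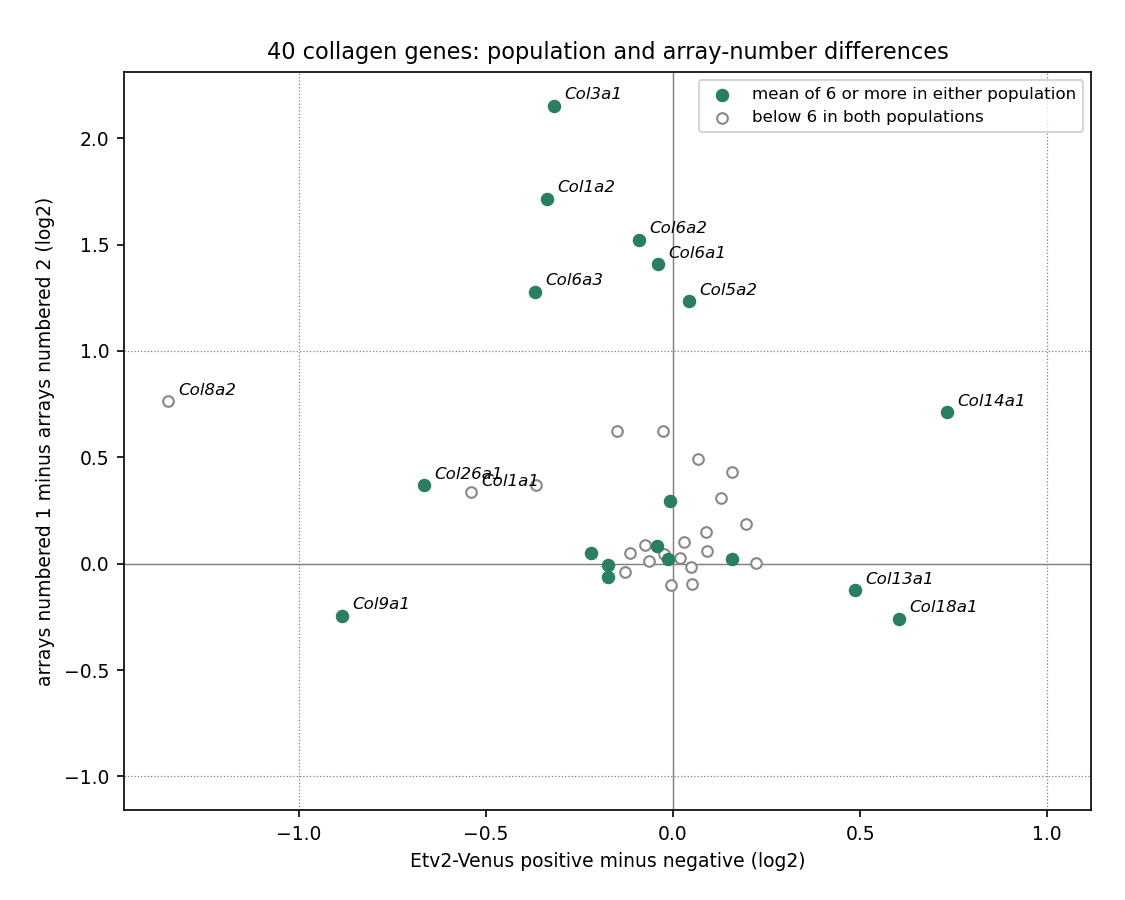
Each point is 1 of the 40 collagen genes, with the Etv2-Venus positive minus negative difference (log2) on the horizontal axis and the number 1 minus number 2 difference (log2) on the vertical axis; dotted lines mark 2-fold. Col3a1, Col1a2, Col6a1, Col6a2, Col6a3 and Col5a2 lie above 1 on the vertical axis with population differences between -0.37 and 0.04, and Col8a2 is the member past 2-fold on the horizontal axis.

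The fibrillar collagens split by array number. Col3a1, the single chain of type III collagen, measured 7.86 in negative cells on number 1 and 5.90 on number 2, and 7.73 and 5.39 in positive cells in the same order. Both arrays numbered 1 were high and both numbered 2 low, and the populations overlapped. The array-number difference was 2.15 (SE 0.13, 4.45-fold; limma adjusted p = 0.199), ranking 2 among all genes, and 1.27 as the mean with a dim second probe set. The population difference was -0.32 (SE 1.003; limma adjusted p = 0.963). Col1a2, a chain of type I collagen, the main protein of bone and tendon, measured 10.02 and 8.41 in negative cells and 9.79 and 7.96 in positive cells. Here too the number 1 arrays were high in both populations, by 1.60 among negative cells and 1.83 among positive cells (mean 1.72, SE 0.09; limma adjusted p = 0.199). Its partner chain Col1a1 measured 6.05 and 5.64 against 5.43 and 5.18, near the array median. Both positive arrays lay below both negative arrays, with a population difference of -0.54 (SE 0.18; limma adjusted p = 0.366) and an array-number difference of 0.34 (SE 0.07). The other probe set of Col1a1 was dimmer and differed by -0.07 between the populations, and the difference of Col1a1 was -0.33 without array 1 of the negative cells.

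Type V collagen nucleates fibrils of type I, and its chains differed in this respect. Col5a2 measured 7.82 and 6.72 in negative cells and 8.002 and 6.63 in positive cells, an array-number difference of 1.24 (SE 0.10; limma adjusted p = 0.199) with populations that overlapped. Col5a1 measured 9.71 and 9.70 against 9.88 and 9.85. All 4 arrays of Col5a1 were close on this probe set, with an array-number difference of 0.02 (SE 0.06) and a population difference of 0.16 (SE 0.09). The further probe sets of Col5a1 differed by 0.20 and 0.24 between the numbers, and a dimmer probe set of Col5a2 by 0.57. The difference between the chains was not tested. Col27a1, a fibrillar chain of cartilage, measured 7.55 and 7.46 against 7.28 and 7.38, a population difference of -0.17 (SE 0.10). Col2a1 of cartilage, Col5a3, Col11a1, Col11a2 and Col24a1 lay below 6 in both populations, with population differences from -0.37 for Col2a1 to 0.16 for Col5a3.

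All 3 chains of type VI collagen, which links cells to the surrounding matrix, were high on the arrays numbered 1. Col6a1 measured 7.68 and 6.24 in negative cells and 7.61 and 6.23 in positive cells. Col6a2 measured 8.44 and 7.03 against 8.46 and 6.83. Col6a3 measured 9.12 and 7.93 against 8.84 and 7.47. In each chain the populations overlapped and the numbers did not. The array-number differences were 1.41 (SE 0.06), 1.52 (SE 0.09) and 1.28 (SE 0.08), each with a limma adjusted p of 0.199. The population differences were -0.04 (SE 0.66), -0.09 (SE 0.71) and -0.37 (SE 0.60), and their standard errors hold the spread between the numbers. Between the populations, within number 1 and number 2, Col1a2 differed by -0.23 and -0.45 and Col3a1 by -0.12 and -0.51. Col6a1 differed by -0.07 and -0.01, Col6a2 by 0.02 and -0.20 and Col6a3 by -0.28 and -0.46. With 1 array left out, a population difference takes in part of the array-number difference. Leaving out array 1 of the negative cells turned the population differences of Col1a2, Col3a1, Col6a1, Col6a2 and Col6a3 to 0.46, 0.66, 0.68, 0.62 and 0.22. Leaving out array 2 of the positive cells turned them likewise. That of Col5a2, 0.04 with all arrays, turned to -0.50 without array 2 of the negative and -0.64 without array 1 of the positive cells. Without array 2 of the negative or array 1 of the positive cells the other 5 kept a difference below 0. Col6a4 and Col6a5, further chains of the type VI family, measured at most 4.43 on any array.

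Most markers of stroma, fibroblasts and adipocyte precursors lay higher on the arrays numbered 1. Of 22 measured stroma markers, which hold no collagen, 16 were higher on number 1 in both populations, against 45.9% of all genes. At an unadjusted p under 0.05, 12 stood higher on number 1 and 0 lower, against 14.5% and 5.34% of all genes. Cxcl12, a chemokine of marrow stroma, was lower on number 1 in both populations, at -0.12 in negative and -0.19 in positive cells. Their median array-number difference was 0.35, against 0.06 for all genes and 0.10 for the collagen members. The log2 of their summed signal was 12.21 and 11.45 in negative cells and 12.07 and 11.09 in positive cells. Lpl, a lipase of adipocytes, differed by 1.34 (SE 0.10) and Mgp, a matrix protein of cartilage and vessel wall, by 1.58 (SE 0.15). Pdgfrb, a receptor of pericytes and fibroblasts, differed by 0.72 (SE 0.06) and Tagln, an actin-binding protein of smooth muscle, by 0.91 (SE 0.07). The 4 stroma markers at least 2-fold higher on number 1, against 0.247% of all genes, were Lpl, Mgp, Ogn and Fabp4, the latter pair named after their values were seen. Ogn was dim, at 4.92 and 2.81 in negative and 5.32 and 2.97 in positive cells, below the array median throughout. Fabp4 differed by 1.16 within negative and 2.54 within positive cells (mean 1.85, SE 0.40). Dcn, Lum and Postn, matrix genes that define fibroblasts, stayed below the array median on every array, at 5.02, 4.08 and 4.14 at most. Of this list 8 markers had a mean of 6 or more. Between the populations 0 of the 22 stood higher and 4 lower at an unadjusted p under 0.05, against 7.07% and 4.64% of all genes. Among the lower ones were Cxcl12 at -0.63 (SE 0.11) and the matrix protein Fbln2 at -0.39 (SE 0.12). Of the 40 collagens, 4 stood lower at that p. Stroma RNA and RNA of other mesenchymal cells in the sorted samples cannot be told apart here, and neither can fewer cells of a type and less RNA per cell. The part of stroma in the collagen differences was not tested.

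**Figure D3:**
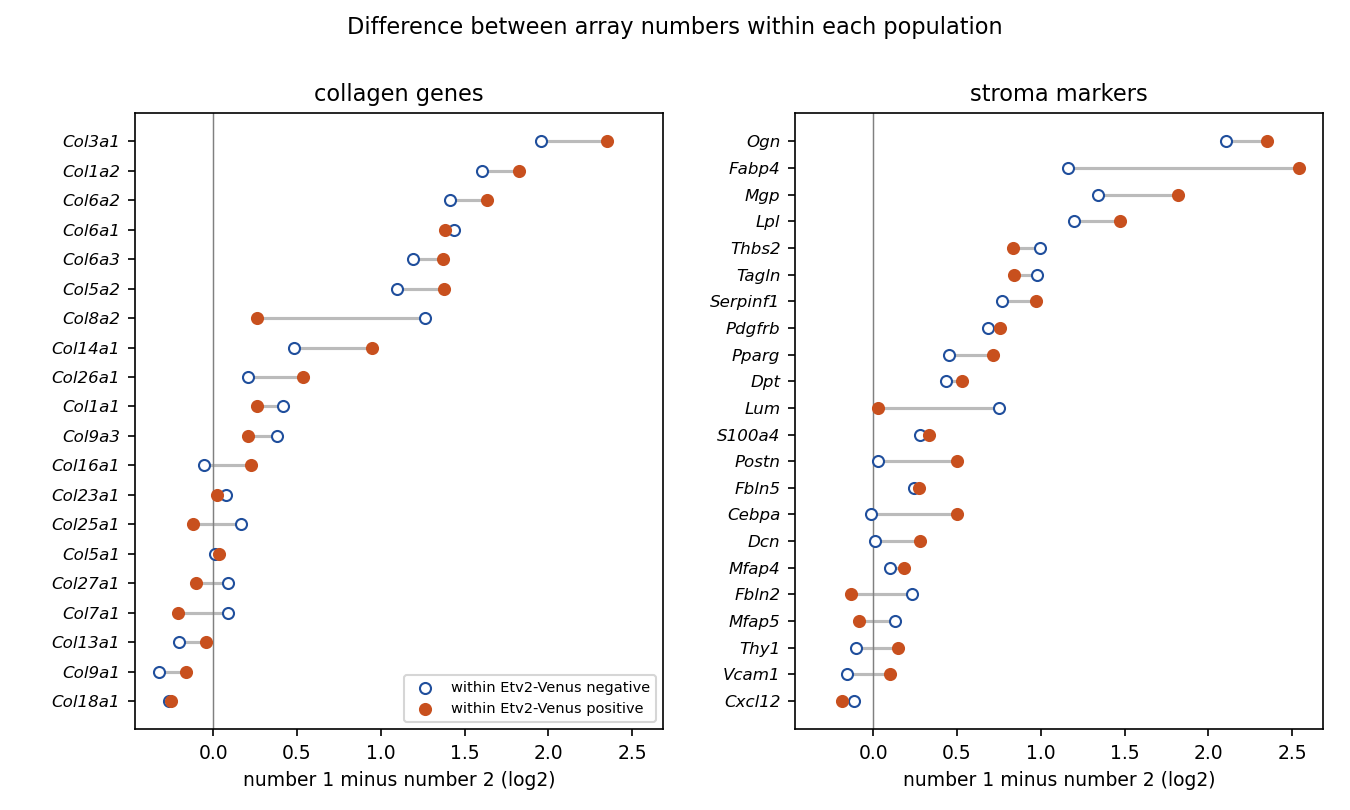
Number 1 minus number 2 differences (log2) of the 20 collagen genes (left) and of 22 stroma markers (right), each within the Etv2-Venus negative (open blue) and the positive population (filled orange). The 6 leading collagens lie between 1.09 and 2.35 in both populations, and Ogn, Fabp4, Mgp and Lpl lie in the same range or above.

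Measures of RNA quality and markers of other cells were set beside the number. The 3' minus 5' signal of the Tfrc control probe sets was 1.46 and 0.85 in negative cells and 1.91 and 1.21 in positive cells, larger on both arrays numbered 1. That of Pcx was 1.06 and 0.85 against 0.92 and 0.58, and that of Gapdh lay between -0.04 and 0.00. That of Actb did not follow the number, at 0.41 and 0.40 against 0.47 and 0.51. Markers of undifferentiated embryonic stem cells were higher on number 1 in both populations for 4 of 4 genes, against 45.9% of all genes, with a median of 0.68. Of these, 2 had a mean of 6 or more, and Zfp42 was dim, at 3.33 at most, with a difference of 0.22. Nanog, with a mean of 5.26, differed by 1.55 within negative and 1.35 within positive cells. Higher on number 1 in both populations were also 2 of 10 endothelial, 2 of 7 endoderm and epithelium and 4 of 6 Flk-1 mesoderm markers. Of blood markers and of cartilage and bone markers it was 1 of 5 each. The part of RNA quality or of other cells in the collagen differences was not tested. Col4a1 and Col4a2, the basement membrane chains left out here, differed by 0.12 (SE 0.07) and 0.42 (SE 0.08) between the numbers.

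Col18a1 and Col13a1 were the members higher in positive cells at an unadjusted p under 0.05. Col18a1, which releases the fragment endostatin and lies in basement membranes of vessels and epithelia, measured 10.66 and 10.92 in negative cells and 11.27 and 11.52 in positive cells. Both positive arrays were higher, by 0.61 within number 1 and 0.60 within number 2. The difference was 0.60 (SE 0.15, 1.52-fold, n = 2 arrays per population; limma adjusted p = 0.222), and a further probe set gave 0.65. Col18a1 was lower on number 1, by -0.26 (SE 0.06). Col13a1, a membrane-spanning collagen of cell adhesion sites, measured 10.37 and 10.58 against 10.94 and 10.98. Its population difference was 0.49 (SE 0.11, 1.40-fold; limma adjusted p = 0.191), 0.57 within number 1 and 0.40 within number 2. Col4a1 and Col4a2 differed by 0.59 (SE 0.11) and 0.71 (SE 0.21) in the same comparison. Col15a1, the other multiplexin, was dim, at 5.06 to 5.85, and differed by -0.03 (SE 0.31).

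Of the FACIT collagens, Col9a1 measured lower and Col14a1 higher in the positive cells. Col9a1, a chain of type IX collagen, which coats type II fibrils, measured 6.70 and 7.02 against 5.89 and 6.06. Both positive arrays were lower, with a difference of -0.89 (SE 0.15; limma adjusted p = 0.121, the smallest among the members), -0.81 within number 1 and -0.97 within number 2. A dimmer probe set of Col9a1 differed by -0.08, and the mean of both by -0.48. Its partner chain Col9a3 measured 6.70 and 6.32 against 6.60 and 6.40, a population difference of -0.01 (SE 0.17). Col9a2 measured at most 4.39. Col14a1, which binds type I fibrils, measured 7.62 and 7.14 against 8.59 and 7.64. The positive array numbered 2 lay just above the negative array numbered 1, so the arrays were apart, but by little. Its population difference was 0.73 (SE 0.36; limma adjusted p = 0.540) and its array-number difference 0.71 (SE 0.15), and a further probe set gave 0.62 and 0.80. The population difference was 0.26 without array 1 of the positive cells and 1.20 without array 2. Col16a1 measured 6.56 to 6.78 on the 4 arrays, with populations that overlapped.

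Among the network-forming chains Col8a2, a chain of type VIII collagen of the cornea and vessel wall, was the member with the largest population difference. It measured 6.30 and 5.03 in negative cells and 4.44 and 4.18 in positive cells, a difference of -1.35 (SE 0.43, 2.55-fold lower; limma adjusted p = 0.338). The negative array numbered 1 stood apart from the other negative array by 1.27, and the difference was -1.85 within number 1 and -0.85 within number 2. It was -0.72 without array 1 of the negative cells and -1.98 without array 2. Its size is uncertain, since 3 of its 4 arrays lay below the array median. It was 1 of 77 genes (0.423%) at least 2-fold lower, while 0 members were among the 109 genes (0.599%) at least 2-fold higher. Col8a1, the partner chain, measured at most 4.93. The type IV chains of adult kidney and other specialised basement membranes, Col4a3, Col4a4, Col4a5 and Col4a6, measured 3.12 to 5.71, with population differences from -0.13 to 0.09. Col10a1 of hypertrophic cartilage lay at or below 4.72.

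The remaining members of mean 6 or more in either population were membrane-spanning or of other kinds. Col23a1, a membrane-spanning chain, measured 9.69 and 9.61 in negative cells and 9.44 and 9.42 in positive cells, a difference of -0.22 (SE 0.09; limma adjusted p = 0.457), and its further probe sets gave -0.17 and -0.38. Both positive arrays were lower, at -0.25 within number 1 and -0.19 within number 2. Col26a1, first described as an Emilin-related protein, measured 6.82 and 6.62 against 6.32 and 5.78. Its difference was -0.67 (SE 0.21, 1.59-fold lower; limma adjusted p = 0.324), and it was higher on number 1 by 0.37 (SE 0.11). The population difference was -0.40 without array 2 of the positive cells and -0.26 as the mean of its probe sets, the other of which is dim. The array-number difference was 0.20 within negative and 0.54 within positive cells. Col7a1 of the anchoring fibrils of skin measured 6.65 and 6.56 against 6.33 and 6.54. Col25a1, a membrane-spanning chain of neurons, measured 6.06 to 6.23 and differed by -0.01 (SE 0.11), while its second probe set differed by 0.54.

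**Figure D4:**
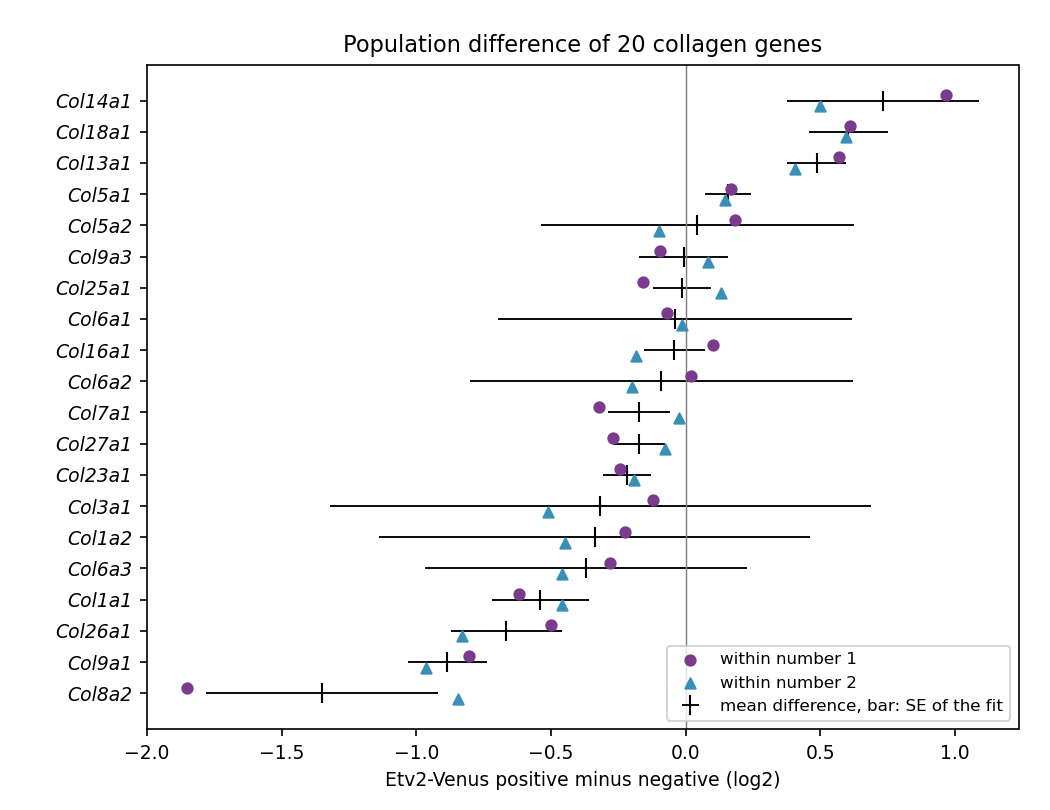
Etv2-Venus positive minus negative differences (log2) of the 20 collagen genes, as the mean with the SE of the fit (black) and within arrays numbered 1 (circles) and numbered 2 (triangles), with 2 arrays per population. Col18a1, Col13a1, Col14a1 and Col5a1 lie above 0 and Col9a1, Col8a2, Col26a1, Col1a1, Col23a1, Col27a1 and Col7a1 below 0 within both numbers. Col3a1, Col1a2, Col6a1 and Col6a3 also lie below 0 within both numbers, and Col6a2 within number 2 alone. The bars of Col3a1, Col1a2 and the type VI chains hold the spread between the numbers and span 0.

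Over all members the arrays of the populations were apart in the higher direction for 7 (17.5%, against 22.4% of all genes) and in the lower direction for 9 (22.5%, against 17%). The higher ones were Col5a1, Col9a2, Col10a1, Col12a1, Col13a1, Col14a1 and Col18a1. The lower ones were Col1a1, Col4a6, Col6a5, Col7a1, Col8a2, Col9a1, Col23a1, Col26a1 and Col27a1. The 20 members not described array by array were Col2a1, Col4a3, Col4a4, Col4a5, Col4a6, Col5a3, Col6a4, Col6a5, Col8a1, Col9a2, Col10a1, Col11a1, Col11a2, Col12a1, Col15a1, Col17a1, Col19a1, Col20a1, Col22a1 and Col24a1. They ranged from 2.74 to 6.10, with population differences from -0.37 to 0.22 and array-number differences from -0.10 to 0.62. Col15a1 and Col19a1 had the highest of these array-number differences, each 0.62 (SE 0.11 and 0.15).

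Some members lie next to each other in the genome, and neighbours did not always share a difference. In GRCm38.p6 there were 6 pairs of members next to each other among protein-coding genes ordered by start. Col3a1 and Col5a2, with array-number differences of 2.15 and 1.24, and Col6a2 and Col6a1, with 1.52 and 1.41, were alike. Col9a1 and Col19a1 were not, at -0.24 and 0.62, with population differences of -0.89 and -0.15. The pairs Col4a4 with Col4a3, Col4a6 with Col4a5 and Col6a5 with Col6a4 were dim.

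Genes that fold, process, bind and degrade collagens were read from the same fits, and 0 of them had a limma adjusted p under 0.05 in either comparison. Among genes of mean 6 or more, Mmp9 and Plod2 had a limma adjusted p of 0.0384 and 0.0459 by array number. The shares of all genes to read the counts against are those given for the collagens, 7.07% higher and 4.64% lower in positive cells, and 14.5% higher and 5.34% lower on number 1. Of 18 folding enzymes and chaperones the population comparison put 2 higher and 1 lower in positive cells (unadjusted p under 0.05), with a median of 0.07. Plod1, a lysyl hydroxylase, differed by 0.50 (SE 0.10) and Serpinh1, the collagen chaperone of the endoplasmic reticulum, by 0.25 (SE 0.09). P3h2, a prolyl hydroxylase acting on type IV collagen, differed by -0.94 (SE 0.18). With the mean over its probe sets Plod1 was at 0.28. By array number 8 of the 18 were higher on number 1 and 1 lower, among them P3h2, Plod3 and P3h1 at 0.34, 0.31 and 0.30 and, in the lower direction, Plod2 at -0.62 (SE 0.07), which was -0.06 as the mean of its probe sets. No folding enzyme or chaperone of the 18 was 2-fold higher on number 1.

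Of 10 genes of procollagen processing and crosslinking, 7 were higher on number 1 and 0 lower at an unadjusted p under 0.05, with a median of 0.34. Tll1 and Pcolce, a protease that trims procollagen ends and an enhancer of such trimming, differed by 0.64 (SE 0.08) and 0.50 (SE 0.11), Adamts3 by 0.32 and Loxl3 by 0.32. Between the populations Bmp1, the main protease for the C-terminal propeptide, was at 0.40 (SE 0.11) and Pcolce2 at -0.50 (SE 0.11), and the median of the list was 0.05. As means over probe sets Bmp1 was at 0.16 and, by array number, Adamts3 at 0.18. Of 9 collagen receptors, Itga1 differed by 0.65 (SE 0.20), while Ddr1, a receptor kinase for collagen, and Mrc2, an uptake receptor, were at -0.79 (SE 0.11) and -0.42 (SE 0.09). As means over their probe sets Ddr1 and Mrc2 were at -0.29 and -0.13, and Itga1 was at 0.38 without array 1 of the negative cells. Itgb1, the shared integrin subunit, was higher on number 1 by 0.33 (SE 0.08; 0.21 as the mean of its probe sets), the only one of the 9 receptors to be so at that p. Of 8 proteases that degrade collagen none reached it between the populations, and Mmp9, a gelatinase, was higher on number 1 by 1.19 (SE 0.10). The protease lower on number 1 at that p was Mmp13, at -0.20 and dim, named after its value was seen.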

How the data were processed

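The 4 arrays read total RNA, 2 per sorted population, labelled with biotin by 3' in vitro transcription as the labels' protocols state. The authors deposited a log2 value for each probe set from RMA; per the submitters' processing notes this was done with R version 2.8.0. That the scale is log2 follows from its range, 2.16 to 14.93. RMA quantile-normalizes the arrays, so values are relative, and it compresses differences near background. Groups and array numbers came from the sample titles.

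Symbols came from the platform annotation: 34945 of 45101 probe sets had 1 symbol. The members and lists were chosen with earlier results of these data known. Linear models with moderated variances (limma 3.58.1 under R 4.3.3) gave two-sided p-values, with Benjamini-Hochberg adjustment over 18193 genes. The population fit had the group alone, and the array-number fit added the population, which left it 1 residual degree of freedom. Its spread per gene, moderated over genes, is the gap between the number difference in negative cells and that in positive cells. Its standard errors and p-values therefore measure how alike these differences were, and not a spread between replicates. Members with a mean of at least 6, a 2-fold difference or 1 of the 6 smallest p-values per comparison were described array by array. Partner genes were named if among the 4 smallest p-values of their list, with a mean of at least 6 and an unadjusted p under 0.05, this last condition added after the values were seen. Listed genes without a match were not used here. On simulated data for 18193 genes the population fit called 96% of genes changed by 1 and 8% changed by 0.5, with 10 false calls, and the array-number fit called 100% and 94%, with 40 false calls. The simulation drew moderated variances, which are more alike than real ones. Its percentages were not met on the measured arrays, where 0 genes had an adjusted p under 0.05 in either fit. Yet log2 differences of 1 or more were seen by population in 109 genes upward and 77 downward. By array number they were seen in 45 upward and 36 downward. The simulated percentages are therefore no guide to the power of the fits on these data. Alternatives were fits of every probe set, of probe set means or of genes of mean 6 or more, a variance trend, renormalization, median centring, the array number as a block or alone, and leaving out each array. Figures used matplotlib 3.10.9.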

Additional observations from a re-analysis of the deposited data

How the results depend on the processing

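Each population has 2 arrays, which limits the precision of every difference, and differences of dim members are compressed near background. The cause of the shifts given here was not tested.

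For the populations, all genes called numbered 66 higher and 13 lower among genes of mean 6 or more, 81 and 31 with a variance trend, and 616 and 361 with a replicate block plus trend, which was chosen after seeing the data. That last fit called 3 members, Col9a1, Col13a1 and Col18a1 (limma adjusted p = 0.0284, 0.0350 and 0.0156), and also P3h2, Ddr1 and Cxcl12 (0.0163, 0.0166 and 0.0246). The shared array numbers do not by themselves pair the samples. The number differences of the populations correlated at 0.54 over 18193 genes, which is a hint from the data, not the design. Members at an unadjusted p under 0.05 numbered 8 lower with the replicate block alone, 4 higher and 8 lower with block plus trend, and 2 lower with probe set means. Without single arrays they ranged from 1 to 2 higher and from 1 to 3 lower. The median over members was -0.066 among members of mean 6 or more, 0.0053 after renormalization and 0.015 with centring, and ranged from -0.13 to 0.14 without single arrays. Differences near 0 changed sign: Col25a1 to 0.26 with probe set means, 0.032 after renormalization and 0.025 with centring, and Col9a3 to 0.029 and 0.032 under the latter pair. Without single arrays Col1a2 ranged from -1.25 to 0.58, Col3a1 from -1.49 to 0.86, Col5a2 from -0.64 to 0.73 and Col6a1 from -0.76 to 0.68. Col6a2 ranged from -0.91 to 0.73, Col6a3 from -1.05 to 0.31 and Col9a3 from -0.20 to 0.18. Col16a1 ranged from -0.16 to 0.071 and Col25a1 from -0.097 to 0.069. Such ranges take in part of the array-number difference, since the numbers are then unbalanced between the populations.

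For the array numbers, all genes called numbered 112 higher and 117 lower among genes of mean 6 or more, and 63 and 83 with a trend. Both settings called 6 members, Col1a2, Col3a1, Col5a2, Col6a1, Col6a2 and Col6a3, with limma adjusted p from 0.0358 to 0.0481, and also Mmp9, Lpl, Tagln, Pdgfrb and Mgp (from 0.0358 to 0.0486), and the former Plod2 (0.0459). Members at an unadjusted p under 0.05 numbered 9 higher among genes of mean 6 or more. In the lower direction 1 stood with every probe set, probe set means, a trend, renormalization and centring, and 0 with the array number alone. The median over members was 0.17 with probe set means, 0.19 at mean 6 or more and 0.12 with centring, and 0.20 to 0.22 without single arrays, a value with no test. Col27a1 turned to 0.18 with probe set means, 0.036 after renormalization and 0.016 with centring, and Col23a1 to -0.16 with probe set means. Without single arrays Col7a1 ranged from -0.21 to 0.089, Col16a1 from -0.058 to 0.23, Col25a1 from -0.12 to 0.17 and Col27a1 from -0.10 to 0.091. With an array left out, an array-number value is the difference within the population that stays whole. These ranges, and that of the median, are therefore the values of the separate populations and no check of stability. Apart from leaving out arrays, 227 of the values of single genes for the populations and 209 for the array numbers kept their direction and side of the threshold, 5 and 4 changed sign, and 6 and 23 passed the threshold. A direction could change only with probe set means, renormalization or centring. In the other settings the difference is the same number as in the main fit, so these counts overstate how stable the directions are.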
